A study of Homo sapiens with 9 samples.

Results

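The genes described here encode the class I major histocompatibility complex (MHC) and the machinery that loads it with peptide. They are 9 of the 60675 genes in the deposited table: the heavy chains HLA-B, HLA-C, HLA-E and HLA-F, the light chain B2M, the peptide transporter subunits TAP1 and TAP2, the loading chaperone TAPBP (tapasin), and NLRC5, the transcriptional activator of class I genes. They were taken by symbol, and each matched 1 Ensembl ID. The set was chosen with earlier results of these data known. RNA was sequenced from MM.1S cells, an established human multiple myeloma line, after 24 h with epigallocatechin gallate (EGCG, a green tea polyphenol). The groups were 0 µM EGCG (the control), 40 µM EGCG and 80 µM EGCG, with 3 libraries each, and every library comes from this 1 line grown in the same serum-containing medium. The submitters' stated question is how EGCG drives apoptosis of myeloma cells.

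Class I molecules show fragments of a cell's own proteins to CD8 T cells. Proteasomes cut the proteins, TAP carries the peptides into the endoplasmic reticulum, and tapasin with calreticulin and PDIA3 holds empty heavy chains beside TAP until a peptide fits. B2M is part of the finished complex and is needed for it to reach the surface. NLRC5 has no DNA-binding domain that recognises these promoters by itself: it is recruited by the RFX, CREB/ATF and NF-Y factors that sit on the SXY module of class I promoters. Interferon raises the whole set through STAT and IRF factors. In myeloma, class I display matters for killing by T cells, and its absence exposes cells to natural killer cells.

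The promoters of the classical heavy chains, B2M and TAP2 are shown with matches to motifs of the IRF, CREB/ATF and NF-Y factors named above. Each runs 5′ to 3′ on the gene's own strand from 250 bases before the start to 50 bases after it, from RefSeq on GRCh38.p14. Capitals mark matches on either strand to AANNGAAA (the core of an IRF site), TGACG (the core of the X2 box, bound by CREB/ATF) and CCAAT (the Y box, bound by NF-Y). The windows are chr6:31357130-31357429 for HLA-B, chr6:31272043-31272342 for HLA-C and chr6:32838690-32838989 for TAP2, all on the minus strand, and chr15:44711267-44711566 for B2M on the plus strand.
HLA-B: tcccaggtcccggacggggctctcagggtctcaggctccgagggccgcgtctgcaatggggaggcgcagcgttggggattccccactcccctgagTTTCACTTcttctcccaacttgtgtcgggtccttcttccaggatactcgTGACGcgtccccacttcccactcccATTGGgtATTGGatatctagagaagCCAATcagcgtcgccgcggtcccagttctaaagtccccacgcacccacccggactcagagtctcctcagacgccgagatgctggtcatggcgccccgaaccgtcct
HLA-C: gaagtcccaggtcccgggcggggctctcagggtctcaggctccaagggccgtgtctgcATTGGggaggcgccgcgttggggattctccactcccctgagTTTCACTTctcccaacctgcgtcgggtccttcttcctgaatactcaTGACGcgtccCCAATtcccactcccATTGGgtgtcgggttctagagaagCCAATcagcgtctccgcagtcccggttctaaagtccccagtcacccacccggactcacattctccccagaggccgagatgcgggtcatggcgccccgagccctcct
B2M: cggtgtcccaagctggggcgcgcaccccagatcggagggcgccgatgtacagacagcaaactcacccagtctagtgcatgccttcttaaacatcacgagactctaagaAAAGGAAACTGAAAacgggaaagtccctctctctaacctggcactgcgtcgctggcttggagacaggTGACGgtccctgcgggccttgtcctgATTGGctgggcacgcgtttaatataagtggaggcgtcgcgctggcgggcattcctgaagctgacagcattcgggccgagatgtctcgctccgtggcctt
TAP2: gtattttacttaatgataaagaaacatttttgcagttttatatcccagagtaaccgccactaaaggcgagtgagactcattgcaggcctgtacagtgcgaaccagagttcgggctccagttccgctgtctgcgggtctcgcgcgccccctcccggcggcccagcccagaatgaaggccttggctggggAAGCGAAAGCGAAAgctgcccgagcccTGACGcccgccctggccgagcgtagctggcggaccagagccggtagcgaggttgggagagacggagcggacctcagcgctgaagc

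In HLA-B and HLA-C the IRF core began 155 and 151 bases before the start, TGACG 106 and 105 bases, and the CCAAT match nearest the start 56 bases in both. HLA-B had further CCAAT matches at 81 and 74 bases, and HLA-C at 192, 95 and 80 bases, the first of these upstream of its IRF core. B2M had adjoining IRF cores at 142 and 136 bases, TGACG at 75 bases and CCAAT at 49 bases. TAP2 had adjoining IRF cores at 62 and 56 bases and TGACG at 35 bases, with no CCAAT match in the window. Of the other promoters listed, HLA-F had an IRF core at 156 bases and CCAAT at 82 and 57 bases, and TAPBP had IRF cores at 18 and 12 bases. TAP1 was listed with windows at chr6:32853655-32853954 and chr6:32852712-32853011. The former had IRF cores at 134 and 128 bases and CCAAT at 249 bases, and the latter had no IRF, TGACG or CCAAT match. Sequences for 7 of the 9 genes were matched, and HLA-E and NLRC5 are only named. Of 35116 promoters of the same length, 22.8% held AANNGAAA, 24.6% TGACG and 34.6% CCAAT, so a single match is common. The NF-kB motif (GGG, any 5 bases, then CC), which was also searched, occurred in 58.7% of them and is not capitalised. A match is a description of the letters and not evidence of binding.

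Positions are from GENCODE 29 on GRCh38. Chromosome 6 carries 7 of the 9 genes: HLA-F (29722775 to 29738528, plus strand), HLA-E (30489467 to 30494205, plus strand), HLA-C (31268749 to 31272130, minus strand), HLA-B (31269491 to 31357188, minus strand), TAP2 (32821833 to 32838780, minus strand), TAP1 (32845209 to 32853978, minus strand) and TAPBP (33299694 to 33314387, minus strand). B2M lies on chromosome 15 (44711487 to 44718877, plus strand) and NLRC5 on chromosome 16 (56989485 to 57083531, plus strand). HLA-B and HLA-C overlap by 35 exon bases. TAP2 shares 32.3% of its exon bases with AL669918.1, a gene on the same strand, so counts of TAP2 could be split with it; AL669918.1 had 26 counts over the 9 libraries. HLA-F shares 12.3% of its exon bases with the antisense gene HLA-F-AS1, which had 32 counts, and no source used here gives the strand setting of the counting.

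Counts in the stretch of chromosome 6 from HLA-F to TAPBP were low in the deposited table, and this bears on the 7 genes there. Of its 142 other protein-coding genes, 63 (44.4%) were at 0 in all 9 libraries, against 153 of 891 (17.2%) on the rest of chromosome 6. Genes that nearly every cell uses were among them: TUBB (a tubulin), LSM2 (an RNA-processing factor) and MRPS18B (a mitochondrial ribosomal protein) were listed at 0, and CLIC1, a chloride channel, had 3 counts over the 9 libraries. Others in the same stretch were well covered, with 9626 counts for the chromatin reader BRD2 and 66826 for the ribosomal protein RPS18. These examples were chosen after their values were seen. No source used here gives the rule for reads with several matches, and its part in these low counts was not tested. Of the 100-base windows of each gene's longest coding transcript, 35.2% were shared with another gene for TAP2, and 0.0% to 0.6% for the other 8 genes. This search compared GENCODE 29 transcripts only, so copies outside that set would be missed.

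**Figure D1:**
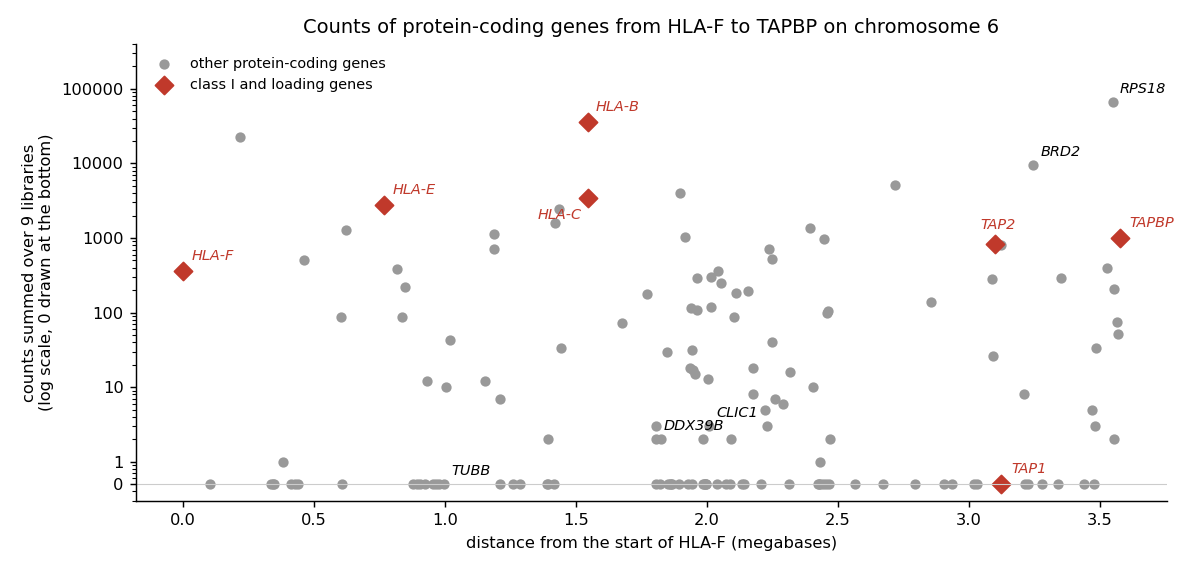
Counts summed over the 9 libraries (log scale, with 0 drawn at the bottom) against the distance of each protein-coding gene from the start of HLA-F. Diamonds are the 7 class I and loading genes, circles are the other genes; TAP1 lies at 0 together with 63 of the 142 other genes, while HLA-B reached 35797 counts.

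TAP1, which forms the transporter together with TAP2, was listed at 0 counts in all 9 libraries. A floor of 3 counts corresponds to 0.183 to 0.234 CPM in these libraries (CPM are counts scaled to library size). Given the neighbours at 0, this value is that of the deposited table and says nothing on whether the cells transcribe TAP1. PSMB8, the immunoproteasome subunit gene next to it, was also at 0, whereas its other neighbour PSMB9 had 806 counts over the 9 libraries.

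Levels of different genes were compared on the authors' FPKM, which divide counts by gene length. In the control, HLA-B stood highest at 49.0 ± 3.05 FPKM and B2M followed at 20.1 ± 11.3 FPKM (SD, n = 3). HLA-E at 5.49 ± 0.868 FPKM and HLA-C at 4.93 ± 0.579 FPKM came next, and their control libraries overlapped. TAPBP at 1.11 ± 0.158 FPKM was above TAP2 at 0.822 ± 0.0225 FPKM, TAP2 overlapped NLRC5 at 0.764 ± 0.116 FPKM, and HLA-F was lowest of the detected genes at 0.423 ± 0.0889 FPKM. The order moved at its lower end with dose: at 80 µM NLRC5, at 0.246 ± 0.0446 FPKM, was the lowest of the detected genes, its libraries overlapping those of HLA-F at 0.292 ± 0.0782 FPKM. The gene lengths implied by the deposited counts and FPKM, with the summed counts as depth, were 1.31 (HLA-E) to 2.38 (HLA-C) times the merged exon lengths in GENCODE 29, so ranks of genes this close depend on the length used.

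The 8 genes with counts passed the filter on low counts and were tested with edgeR's quasi-likelihood test over 15982 genes, with Benjamini-Hochberg adjustment. NLRC5 was lower at 80 µM than in the control and lower at 80 µM than at 40 µM, and TAP2 was lower at 80 µM than in the control. The heavy chains, B2M and TAPBP did not pass the test in any comparison. In bulk RNA, fewer cells expressing a gene and less RNA per cell cannot be told apart. The labels do not say that the 3 libraries of a group were separate cultures, so p-values measure the spread between these libraries, which may be technical.

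NLRC5, the activator, had 20.45, 15.1 and 19.4 CPM in the control libraries, 10.7, 11.2 and 12.8 CPM at 40 µM, and 4.83, 5.73 and 6.86 CPM at 80 µM. The 3 groups did not overlap at any step of dose. The log2 fold change at 80 µM against control was -1.66 ± 0.18 (SE), which is 0.317 of the control level with a 95% interval of 0.241 to 0.417 (edgeR adjusted p = 9.71e-05). Between the doses, 80 µM against 40 µM, it was -0.99 ± 0.18, or 0.503 of the 40 µM level (edgeR adjusted p = 0.00375). At 40 µM against control it was -0.67 ± 0.17, which missed the threshold in edgeR (adjusted p = 0.0738) and passed it in DESeq2 (adjusted p = 0.0211); over all alternatives this adjusted p ran from 0.0211 to 0.218. Both comparisons with control share the control libraries. NLRC5 lies outside the sparsely counted stretch of chromosome 6.

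Around NLRC5, markers of other blood lineages also moved with dose in this line, and their part in its fall was not tested. The summed level of 8 mature B cell markers was 56.5 to 65.1 CPM in the control, 42.8 to 44.3 CPM at 40 µM and 21.0 to 27.8 CPM at 80 µM, with CD22 at 0 throughout. The summed level of 6 dendritic cell markers was 33.6 to 39.2 CPM in the control, 54.2 to 60.9 CPM at 40 µM and at least 98.4 CPM at 80 µM, with CLEC4C and CD1C at 0. All 11 plasma cell markers were detected, with a summed level of 6964 to 7429 CPM in the control, 6603 to 7313 CPM at 40 µM and 5855 to 6659 CPM at 80 µM. The summed level of 10 T and NK cell markers was 9.26 to 11.0 CPM in the control, 15.3 to 17.4 CPM at 40 µM and 23.1 to 28.1 CPM at 80 µM, with CD3D and NKG7 at 0. Single markers did not all follow these sums: for 80 µM against control, of 3 tested T and NK cell markers 1 rose and 1 fell, of 4 tested dendritic cell markers 2 rose and 2 had negative log2 fold changes, and the 3 tested mature B cell markers all fell. In that comparison 17.4% of all genes tested were called higher and 17.5% lower, so calls among so few markers are common. Monocyte markers (8 genes, S100A8 at 0) summed to 6.77 to 8.64 CPM in the control, 6.66 to 16.3 CPM at 40 µM and 7.17 to 8.66 CPM at 80 µM. Stromal markers (8 genes, COL1A2 and LUM at 0) summed to 11.3 to 16.5 CPM in the control, 10.3 to 13.8 CPM at 40 µM and 5.43 to 7.17 CPM at 80 µM.

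**Figure D2:**
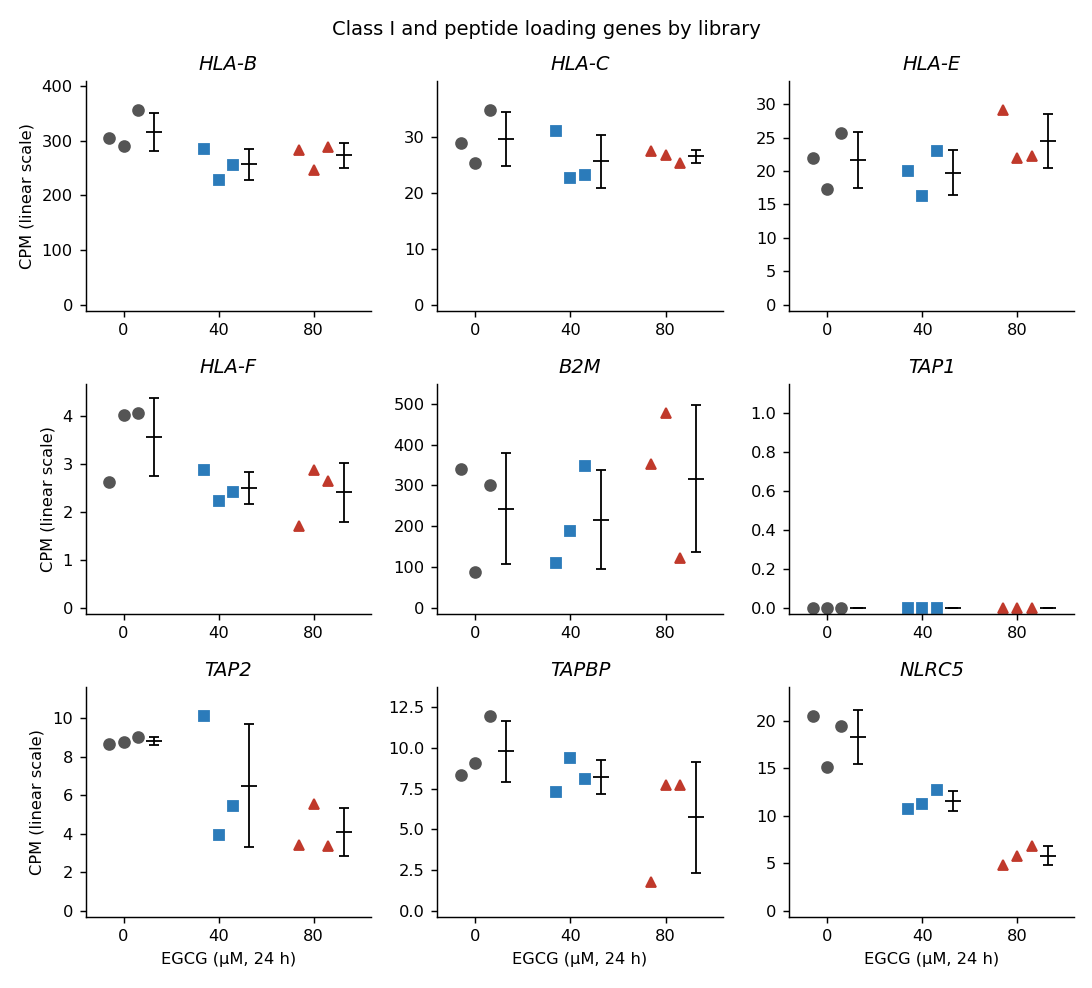
CPM of the 9 genes (linear vertical axes from 0) in each library at 0, 40 and 80 µM EGCG; points are libraries and the bar beside them is the mean ± SD of 3. NLRC5 separates into 3 levels, TAP2 is lower at 80 µM, B2M spreads widely within every group and TAP1 is at 0.

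TAP2, the partner of TAP1 in the peptide transporter, had 8.64, 8.78 and 9.03 CPM in the control, 10.1, 3.96 and 5.47 CPM at 40 µM, and 3.42, 5.54 and 3.35 CPM at 80 µM. All 80 µM libraries were below all control libraries, while the 40 µM libraries spread over both levels, replicate 1 lying above every control library. The log2 fold change at 80 µM against control was -1.09 ± 0.33, or 0.469 of the control level (edgeR adjusted p = 0.0244). The call was kept without 80 µM replicate 2 (adjusted p = 0.0208) or any 1 of the 40 µM libraries (0.00584 to 0.0314). It was lost without 80 µM replicate 1 or 3 (adjusted p = 0.0805 and 0.0863) and without control replicate 1, 2 or 3 (adjusted p = 0.0551, 0.0533 and 0.0604), with log2 fold changes between -1.10 and -0.95. At 40 µM against control the log2 fold change was -0.43 ± 0.32 (edgeR adjusted p = 0.469) and without 40 µM replicate 1 it was -0.90 (adjusted p = 0.0896). With 43 to 165 counts a library, TAP2 was among the more variable genes, its biological coefficient of variation of 0.277 exceeding that of 85.2% of the genes tested.

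TAPBP, which encodes tapasin, had 8.37, 9.075 and 11.9 CPM in the control, 7.275, 9.36 and 8.09 CPM at 40 µM, and 1.785, 7.71 and 7.72 CPM at 80 µM. The 80 µM libraries were all below the control libraries, and replicate 1 at 80 µM, with 24 counts, stood far below the other two. The log2 fold change at 80 µM against control was -0.77 ± 0.41 with a 95% interval of -1.67 to 0.14, which did not pass (edgeR adjusted p = 0.172), and without 80 µM replicate 1 it was -0.35. At 40 µM against control it was -0.25 ± 0.40 (edgeR adjusted p = 0.76).

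HLA-B, the most abundant heavy chain here by FPKM, had 304, 289.9 and 356 CPM in the control, 285, 229 and 256 CPM at 40 µM, and 283, 247 and 289 CPM at 80 µM. Each treated library was below the lowest control library, by a margin that was small beside the spread within groups. The log2 fold change was -0.30 ± 0.12 at 40 µM (edgeR adjusted p = 0.196) and -0.21 ± 0.12 at 80 µM (edgeR adjusted p = 0.191). The 95% interval at 80 µM, -0.48 to 0.05, corresponds to 0.718 to 1.04 of the control level, so a fall as deep as that of NLRC5 lies outside it.

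HLA-C, the other classical heavy chain, had 28.8, 25.3 and 34.75 CPM in the control, 31.1, 22.6 and 23.1 CPM at 40 µM, and 27.5, 26.7 and 25.3 CPM at 80 µM. The groups overlapped, and the log2 fold change was -0.21 ± 0.16 at 40 µM and -0.16 ± 0.16 at 80 µM (edgeR adjusted p = 0.487 and 0.475). HLA-E, the non-classical molecule that presents leader peptides to the CD94/NKG2A receptor of natural killer cells, had 21.9, 17.3 and 25.6 CPM in the control, 19.9, 16.3 and 23.0 CPM at 40 µM, and 29.1, 21.98 and 22.3 CPM at 80 µM. These groups overlapped as well. Its log2 fold change at 80 µM against control was 0.18 ± 0.19 with a 95% interval of -0.24 to 0.59 (edgeR adjusted p = 0.499). HLA-F, a non-classical chain with restricted surface display, was measured at 23 to 54 counts a library. It had 2.63, 4.02 and 4.06 CPM in the control, 2.87, 2.23 and 2.41 CPM at 40 µM, and 1.71, 2.87 and 2.65 CPM at 80 µM, with overlap between groups. Its log2 fold change at 80 µM against control was -0.56 ± 0.27 with a 95% interval of -1.16 to 0.04 (edgeR adjusted p = 0.135).

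B2M had 340.5, 88.0 and 301 CPM in the control, 109.8, 189 and 348 CPM at 40 µM, and 351, 476 and 122 CPM at 80 µM. The groups overlapped over nearly their whole range, and the lowest libraries were control replicate 2, 40 µM replicate 1 and 80 µM replicate 3. The highest library exceeded the lowest by 3.87 times in the control, 3.17 times at 40 µM and 3.91 times at 80 µM. Of the 4477 genes averaging 50 CPM or more, 25 had a ratio of at least 2 in all 3 groups, B2M among them. The heavy chains did not follow this spread: their summed level was 358, 336 and 420.3 CPM in the control libraries, 338.5, 270.1 and 305 CPM at 40 µM, and 342, 298 and 339 CPM at 80 µM. The log2 fold change of B2M at 80 µM against control was 0.38 ± 0.58 with a 95% interval of -0.90 to 1.66 (edgeR adjusted p = 0.644), which allows a fall to 0.537 and a rise to 3.15 times the control level. The cause of the spread of B2M was not tested.

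Counted together, 2 of the 8 tested genes were called at 80 µM against control, where 34.9% of all 15982 genes tested were called (17.4% higher and 17.5% lower); both were lower. For 80 µM against 40 µM 1 of 8 was called, as lower, against 23.0% of all genes (10.9% higher and 12.1% lower). Both shares are no higher than those of all genes. At 40 µM against control edgeR called 0 of 8, against 2.30% of all genes (1.49% higher and 0.813% lower), although NLRC5 and HLA-B had an unadjusted p under 0.05 (0.00278 and 0.0284) and DESeq2 called NLRC5; limma-voom called 0. All 8 log2 fold changes were negative at 40 µM, with a median of -0.28 against 0.01 over all genes, although that of B2M turned positive without 40 µM replicate 1 or control replicate 1. In the comparison of 80 µM with control 6 were negative and 2 (HLA-E and B2M) positive, with a median of -0.39 against -0.00 over all genes; B2M turned negative without 80 µM replicate 2 or control replicate 2. Between the doses, 80 µM against 40 µM, 4 were negative and 4 positive, with a median of -0.00 against -0.01 over all genes.

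**Figure D3:**
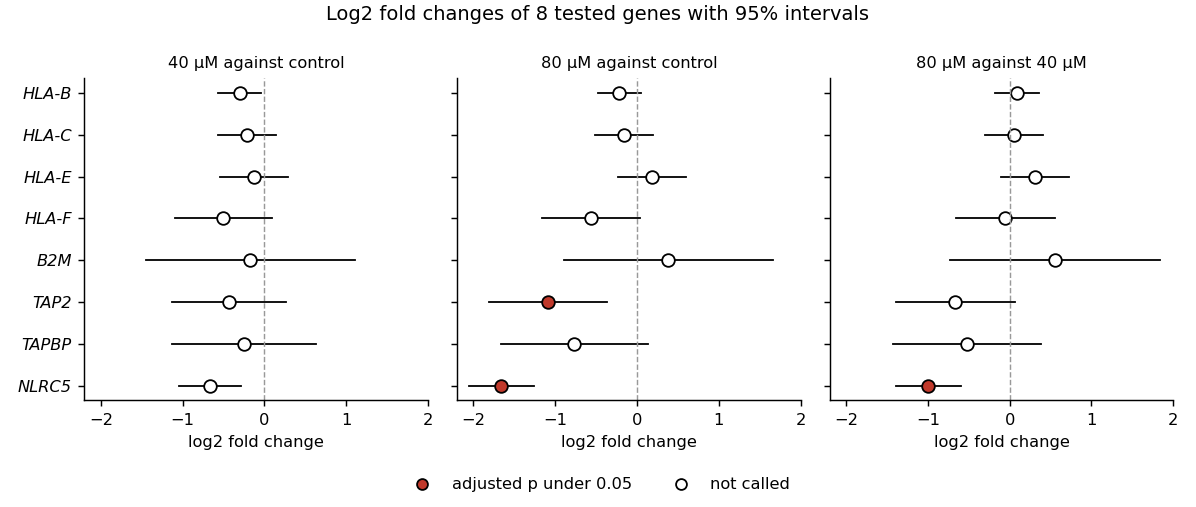
Log2 fold changes (points) and 95% intervals (lines) of the 8 tested genes in the 3 comparisons; filled points have an adjusted p under 0.05. NLRC5 is called at 80 µM against control and against 40 µM, TAP2 at 80 µM against control, and the intervals of B2M are the widest.

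The genes that make and trim the peptides were followed in a list of 18, of which 17 were tested and PSMB8 was at 0. In the 80 µM libraries, against control, 6 of the 17 fell and 1 rose, with a list median of -0.33, where 17.5% of all genes tested were called lower and 17.4% higher. PSME2 and PSME1, which form the interferon-inducible PA28 cap of the proteasome, fell to 33.9 ± 4.87 and 88.8 ± 7.01 CPM at 80 µM, against 66.7 ± 3.74 and 129 ± 17.1 CPM in the control (log2 fold change -0.98 and -0.54, edgeR adjusted p = 0.000277 and 0.00663). ERAP1, the aminopeptidase that trims peptides in the endoplasmic reticulum, fell by 0.47 on the log2 scale (edgeR adjusted p = 0.0047). PSMB10, an immunoproteasome subunit, TAPBPL, a tapasin relative that edits peptides, and CALR, the calreticulin of the loading complex, were the other three that fell, with log2 fold changes of -0.47, -0.68 and -0.35 (edgeR adjusted p = 0.0273, 0.00888 and 0.0468). CANX, the calnexin that holds new heavy chains, rose at both doses, to 215 ± 25.8 CPM at 80 µM and 228.0 ± 25.2 CPM at 40 µM, against 136 ± 25.4 CPM in the control (log2 fold change 0.66 and 0.75, edgeR adjusted p = 0.00619 and 0.0304). It was the 1 gene of the list called at 40 µM, where 2.30% of all genes were called. Between the doses PSME1, PSME2 and ERAP1 were called, all lower at 80 µM, where 23.0% of all genes tested were called (12.1% lower). PDIA3, the other chaperone of the loading complex, had a log2 fold change of 0.22 at 80 µM (edgeR adjusted p = 0.102).

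Of 19 factors that act at class I promoters, 3 rose and 2 fell at 80 µM against control, a smaller share than the 34.9% of all genes called. CIITA, the relative of NLRC5 that activates class II genes, fell to 39.3 ± 3.59 CPM, against 74.7 ± 3.06 CPM in the control (log2 fold change -0.93 ± 0.11, edgeR adjusted p = 0.000131). RFX5, a subunit of the factor that recruits NLRC5, fell by 0.39 on the log2 scale (edgeR adjusted p = 0.0103). RELB, a subunit of the non-canonical NF-kB factor, rose to 151 ± 11.8 CPM, against 74.7 ± 9.65 CPM in the control (log2 fold change 1.02, edgeR adjusted p = 0.000463), and PCGF1, a Polycomb subunit, rose by 0.90 on the log2 scale (edgeR adjusted p = 0.00131). NFYC, an NF-Y subunit, was the third that rose, with a log2 fold change of 0.52 (edgeR adjusted p = 0.0276). IRF1, the interferon-induced activator of class I genes, had a log2 fold change of 0.20 at 80 µM (edgeR adjusted p = 0.117). At 40 µM the smallest edgeR adjusted p of the list was 0.153, for NFKB1. The list median at 80 µM was -0.05.

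Among 21 tested genes of interferon receptors and JAK-STAT signalling, 8 rose and 3 fell at 80 µM against control, with a list median of 0.30, where 17.4% of all genes were called higher and 17.5% lower. STAT2, part of the ISGF3 complex downstream of type I interferon, rose to 200.1 ± 17.0 CPM, against 94.3 ± 16.3 CPM in the control (log2 fold change 1.09, edgeR adjusted p = 0.000193). IRF9, its DNA-binding partner, rose by 0.75 (edgeR adjusted p = 0.00388), IRF7 by 0.96 (adjusted p = 0.000743) and IFNGR1, a chain of the interferon gamma receptor, by 0.96 (adjusted p = 0.00109), all on the log2 scale. The feedback inhibitors SOCS1 and SOCS3 fell at 80 µM. SOCS1 had 4.98 ± 1.04 CPM at 80 µM and 4.91 ± 0.731 CPM at 40 µM, against 10.7 ± 2.27 CPM in the control, and was called at both doses (edgeR adjusted p = 0.0033 and 0.0283). SOCS3 had 2 counts over the 80 µM libraries, against 92 over the control libraries; the control level was 46.0 times the 80 µM level, with a 95% interval from counting error alone of 12.4 to 386.

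Of 20 ligands for natural killer cells and other class I relatives, 9 were listed at 0 in all libraries and 4 had enough counts to be tested. HLA-G (at 0) and MICA (73 counts over the 9 libraries), which were not tested, and MICB lie in the sparsely counted stretch of chromosome 6. ULBP1, a stress ligand of the activating receptor NKG2D, had 0, 0 and 2 counts in the control, 13, 12 and 10 counts at 40 µM, and 39, 48 and 37 counts at 80 µM. Every treated library exceeded every control library. Its level was 62.0 times the control at 80 µM (95% interval from counting error alone 16.8 to 518) and 16.2 times at 40 µM (4.17 to 139), and it was called in all 3 comparisons (edgeR adjusted p = 6.72e-05 at 80 µM, 0.0184 at 40 µM and 0.00609 between the doses). MICB, another NKG2D ligand, had 1.63 ± 0.273 CPM at 80 µM and 1.62 ± 0.532 CPM in the control (edgeR adjusted p = 0.98). MR1, which presents vitamin B metabolites, had 38.3 ± 12.0 CPM at 80 µM and 33.3 ± 2.86 CPM in the control (adjusted p = 0.572). Of 10 class I pseudogenes 8 were at 0, and HLA-H, the 1 tested, had a log2 fold change of -0.23 at 80 µM (edgeR adjusted p = 0.627).

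**Figure D4:**
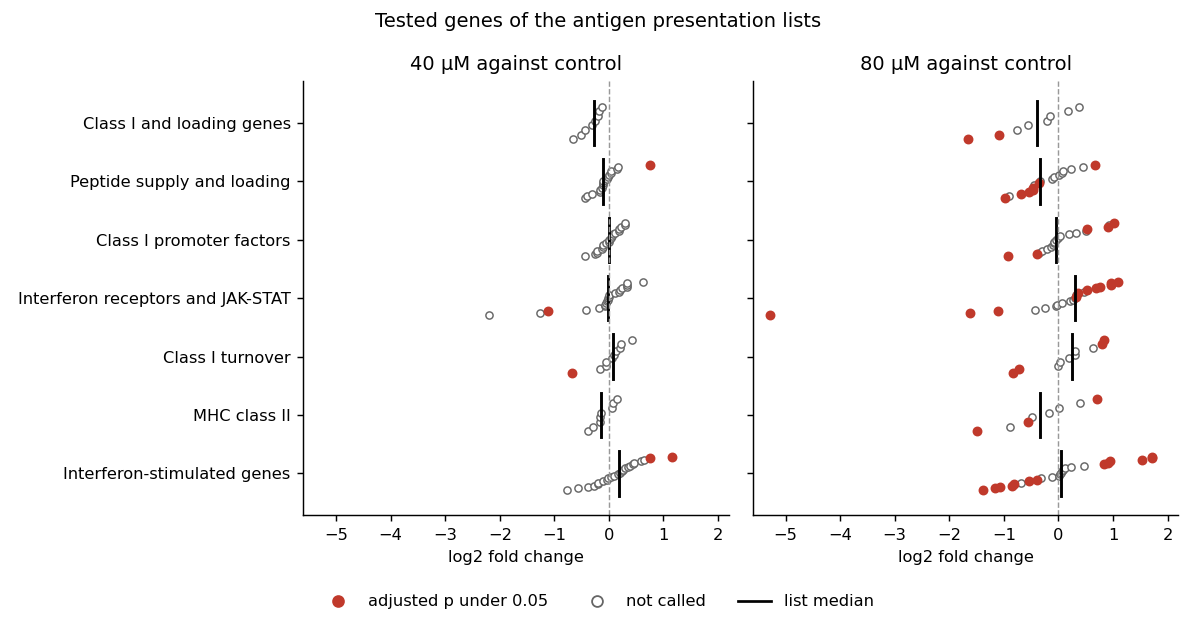
Log2 fold changes of tested genes, grouped by list, at 40 µM (left) and 80 µM (right) against control; filled points have an adjusted p under 0.05 and the vertical bar is the list median. At 80 µM the peptide supply list has 6 called falls and 1 called rise, and the interferon receptor and JAK-STAT list 8 called rises and 3 called falls.

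For each tested gene, the gene of the other lists with the most similar profile was found by the root mean square distance between log2 CPM values, each centred on its own mean, over the 9 libraries and 99 candidates. For NLRC5 this was IFI30, a lysosomal reductase of the class II pathway, at a distance of 0.233 where the median candidate lay at 0.743. IFI30 had 29.4 ± 4.56 CPM in the control, 23.9 ± 1.49 CPM at 40 µM and 10.5 ± 0.771 CPM at 80 µM. For TAP2 it was TAPBPL at 0.364 (median 0.633), and for TAPBP it was PSME3 at 0.479 (median 0.766). HLA-B and HLA-C both had PRKCSH, a subunit of glucosidase II, at 0.101 and 0.097 (medians 0.353 and 0.358). Both genes varied little, by 0.174 and 0.187 about their own means, so a flat profile would lie at those distances. HLA-E was nearest to IFNLR1 (0.177, median 0.39) and HLA-F to IFIT3 (0.241, median 0.448). B2M had no close match, its nearest being NPEPPS at 0.693 (median 0.893).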

How the data were processed

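RNA from 9 MM.1S libraries (3 per dose) was sequenced. The authors deposited a single table in which, per the file headers, every gene has an FPKM and a whole-number count in each library. These count values carry no normalization by the authors, whereas the FPKM were scaled by the authors for gene length and depth. Per the submitters' processing notes, the tools were HISAT2, SAMtools 1.3.1, CASAVA 1.8 and edgeR, on GRCh38. The counting program, and how it treated multiple matches, is not given in the sources. The table has 60675 IDs, of which 60656 have a symbol and 58444 are in GENCODE 29.

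Library totals were 12674490 to 16427343 counts. edgeR 4.0.16 in R 4.3.3 was used with filterByExpr (15982 genes kept, holding 99.71 to 99.83% of counts), TMM factors of 0.945 to 1.031 and a quasi-likelihood test with dose as the single factor over all 9 libraries (6 residual degrees of freedom). The threshold for a call was 0.05 after Benjamini-Hochberg adjustment over all genes tested. CPM use TMM-scaled totals; intervals are 95%, and those of count ratios and the floor of 3 counts cover counting error only. Values after ± are SDs over 3 libraries for levels and SEs for log2 fold changes. No 2 replicates of a group were copies of each other (chi-square per degree of freedom 12.71 to 33.21 over the 9 pairs). The pipeline was tested on simulated data.

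Alternatives used DESeq2 1.42.0, limma 3.58.1 (voom, and log2 of the FPKM plus 1 or 0.1), other scalings and filters, a replicate block, and leaving out each library. The gene set and lists were chosen with earlier results of these data known. The rule for naming took the 9 genes and each gene's nearest profile. It also took, of each list, the 4 genes with the smallest p in each comparison with control and the 2 between doses. AZGP1, RFXANK, SUZ12, ADAR, MARCHF1, HLA-DRB1, HLA-DPB1 and CTSS met the rule but are not otherwise described. None of them was called by edgeR in the comparisons that selected them. Other selected genes are not described in every comparison that selected them. PSMB8, PSMB9, CALR, PDIA3, NFYC, IRF1, HLA-G, MICA and, at 80 µM against control, PSMB10, TAPBPL, IRF9, SOCS1, SUSD6, MX1, MX2 and IFI6 are named outside that rule and were chosen after their values were seen.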

Additional observations from a re-analysis of the deposited data

How the results depend on the processing

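Over 20 alternative settings, 466 of 480 log2 fold changes of the 8 genes kept their direction and their side of the threshold. NLRC5 was called at 80 µM against control under each alternative run (log2 fold change -1.77 to -0.50, the smallest on log2 of FPKM plus 1; adjusted p 3.28e-13 to 0.000933) and at 80 µM against 40 µM (adjusted p 9.34e-05 to 0.0215). With DESeq2, 1 gene (NLRC5) was called at 40 µM against control in place of 0. Leaving out 1 library gave 1 to 2 called genes at 80 µM against control, TAP2 being the gene lost. Directions reversed among uncalled values when 1 library was left out. B2M at 40 µM against control ran from -0.70 to 0.15 (without control replicate 1), with 0.14 without 40 µM replicate 1, and at 80 µM against control from -0.0268 (without 80 µM replicate 2) to 0.78, with -0.0098 without control replicate 2. For 80 µM against 40 µM, HLA-F ran from -0.19 to 0.13 (without 80 µM replicate 1), with 0.05 without 40 µM replicate 1, and HLA-C from -0.0295 (without 40 µM replicate 2) to 0.21, with -0.0137 without 40 µM replicate 3. The cause of these changes was not tested.

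Same-numbered libraries did not deviate together (correlations -0.139 to 0.051). Whether equal numbers shared a batch is not given by the labels and cannot be read from these correlations. With the replicate number as a block, the test called 2 of the genes for 80 µM against control, 0 for 40 µM against control and 1 between the doses, the same numbers as without it; NLRC5 had an adjusted p of 0.000383 and TAP2 of 0.0393 at 80 µM against control. Over all genes, the count called at 40 µM against control ranged from 136 (without control replicate 1) to 847 (DESeq2) around 368, with 183 under the block, 228 with no filter on low counts and 153 when only the 6 libraries compared were fitted. Between the doses it ranged from 2101 (without 80 µM replicate 2) to 4059 around 3674, and at 80 µM against control from 4170 to 5775 around 5574. HLA-F, TAP2 and TAPBP had at most 165 counts a library, which limits their precision together with the spread between libraries, and the low counts of the chromosome 6 stretch limit every statement on TAP1.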

Other observations

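Genes that act on class I after synthesis were listed as 11, of which 10 were tested; 2 rose and 2 fell at 80 µM against control, where 34.9% of all genes were called. TMEM127, which with SUSD6 and WWP2 lowers surface class I, rose to 193 ± 5.75 CPM at 80 µM, against 108 ± 15.8 CPM in the control (log2 fold change 0.84, edgeR adjusted p = 0.000354), while SUSD6 had 60.6 ± 0.668 CPM at 80 µM and 59.6 ± 4.94 CPM in the control (edgeR adjusted p = 0.878). NBR1, an autophagy receptor that can carry class I to lysosomes, rose by 0.81 on the log2 scale (edgeR adjusted p = 0.00273). UBE2N, a ubiquitin-conjugating enzyme, fell by 0.82 (adjusted p = 0.000873). MARCHF9, a ubiquitin ligase of class I, was lower at both doses, with 27.3 ± 1.16 CPM at 80 µM and 28.02 ± 3.89 CPM at 40 µM, against 44.9 ± 5.77 CPM in the control (edgeR adjusted p = 0.00268 and 0.033).

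Class II genes were represented by 8 tested members of 15, with 6 at 0. The 6 at 0 lie in the sparsely counted stretch of chromosome 6, so they say nothing on whether the cells transcribe these genes. IFI30 fell by 1.49 on the log2 scale at 80 µM against control (edgeR adjusted p = 4.61e-05) and HLA-DRA, the shared alpha chain of HLA-DR, by 0.56 (adjusted p = 0.00959), while MARCHF8, a ubiquitin ligase of class II, rose by 0.70 (adjusted p = 0.000352). Interferon-stimulated genes moved both ways: of 24 tested, 6 rose and 7 fell at 80 µM against control, where 17.4% of all genes were called higher and 17.5% lower. OAS1, OAS3 and OAS2, the sensors of double-stranded RNA, rose by 1.71, 1.72 and 0.94 on the log2 scale (edgeR adjusted p = 2.58e-05, 5.4e-05 and 0.000241) and the GTPase GBP2 by 1.53 (adjusted p = 0.000311). Among those that fell were the antiviral GTPases MX1 and MX2 and the mitochondrial protein IFI6, by 0.82, 1.39 and 1.16 on the log2 scale (edgeR adjusted p = 0.00175, 0.0159 and 0.00528). At 40 µM against control 2 of the 24 were called, both higher, where 1.49% of all genes were called higher: OAS3 (log2 fold change 1.16, edgeR adjusted p = 0.00615) and GBP3 (0.75, adjusted p = 0.0282).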
